A study of Mus musculus with 27 samples.

Results

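Prostaglandins, thromboxane and leukotrienes are signalling lipids that macrophages make from arachidonic acid. Cytosolic phospholipase A2 frees the fatty acid from membranes, the cyclooxygenases turn it into prostaglandin H2, and terminal synthases make prostaglandin E2, prostaglandin D2 or thromboxane from that intermediate, while 5-lipoxygenase and its activating protein open the leukotriene branch. The inducible cyclooxygenase Ptgs2 is known as an immediate response gene of activated macrophages, and its mRNA is a textbook AU-rich transcript that the RNA-binding protein HuR can bind.

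The 10 genes described here were chosen by symbol, 1 row each, from the 55483 genes of the deposited count table. They are Pla2g4a (substrate release), Ptgs1 and Ptgs2 (cyclooxygenases), Ptges, Ptges2, Ptges3, Tbxas1 and Hpgds (terminal synthases), Alox5ap (leukotriene branch) and Ptger4 (a prostaglandin E2 receptor). They were read in all 27 libraries from RAW264.7, an established mouse macrophage-like line. Cells received the vehicle DMSO, LPS (lipopolysaccharide, 1 µg/ml) with DMSO, or LPS with 10 µM TM7nox, each for 6 h. The series text calls the compounds given with LPS tanshinone mimics and its title speaks of HuR modulation; no library here had TM7nox without LPS. Total RNA and RNA recovered on beads with anti-HuR (ribonucleoprotein immunoprecipitation, RIP) were sequenced in 4 replicates per treatment, and control IgG beads in 1 library per treatment. The 3 IgG libraries all carry replicate number 3.

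Library depth lay between 2728534 and 41449233 counts, with the DMSO RNA library of replicate 1 the shallowest and the other 26 at 8873091 counts or more. All 10 macrophage markers on a fixed list had counts in each group, and their summed level in RNA lay between 3609 and 7094 CPM per library. Among them Mertk was sparse, at 0 to 1.12 CPM in RNA (197 counts), while Lyz2 reached 4385 CPM. CPM, the usual depth-scaled counts, are on 1 TMM scale (trimmed mean of M values) over the 27 libraries. Mast-cell markers, listed because Hpgds is also a mast-cell gene, summed to at most 0.636 CPM in RNA, and their part in the Hpgds result was not tested. The summed levels of the other lists reached at most 0.232 CPM for T cells, 4.30 for B cells, 3.51 for neutrophils, 0.158 for fibroblasts, 0.385 for epithelium, 2.97 for endothelium and 2.14 for platelets in RNA, and the B-cell list reached 32.5 CPM in RIP of LPS with TM7nox. In these bulk samples, fewer expressing cells and less RNA per cell cannot be told apart.

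The sequences shown first are the stretches of 3′ UTR that the HuR results refer back to. They are read 5′ to 3′ as DNA from the GRCm39 genome with the GENCODE M39 transcripts, so T stands for U. In the Ptgs2 window (chr1:149981548-149981577, plus strand, in the 3′ UTR starting 15 bases after the stop codon) capitals mark the ATTTA pentamers. In the other windows capitals mark runs of 5 or more T. The Ptges3 window is chr10:127912099-127912128 on the plus strand, 144 bases after the stop codon, and the Hpgds window is chr6:65094581-65094610 on the minus strand, 2298 bases after it. The T-rich windows were chosen after the values were seen.
Ptgs2: tATTTATTTATTTAtgtgaagaATTTAatt
Ptges3: TTTTTcTTTTTTTTcTTTTTTTTTTTTTTT
Hpgds: ttatactcattttaTTTTTTTTTTTTaaat

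The Ptgs2 3′ UTR, 2445 bases long, held 14 AUUUA pentamers and 1 copy of the nonamer UUAUUUAUU, which contains the pentamer. AUUUA occurred in 73.5% of the 3′ UTRs of the 10981 coding genes with an annotated one among those tested, and UUAUUUAUU in 9.23%. No other member held the nonamer. Pla2g4a had 4 pentamers in only 443 bases, or 9.03 per kb, against a median of 1.38 per kb over all these UTRs. Ptger4 had 5 pentamers, Ptges2, Ptges3 and Hpgds 4 each, and Alox5ap 3, while Ptgs1, Ptges and Tbxas1 had none in these transcripts. The heptamer UUUUUUU, found in 47.9% of all the UTRs, occurred 28 times in Ptges3 when overlapping copies are counted, 9 times in Ptger4, 7 times in Hpgds, 3 times each in Ptgs2 and Ptges and 1 time in Ptges2. The longest run of U was 16 bases in Ptges3, 12 in Hpgds and 11 in Ptger4. Only the sense strand of the transcript was searched, and a match is a description of letters, not a binding site.

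**Figure D1:**
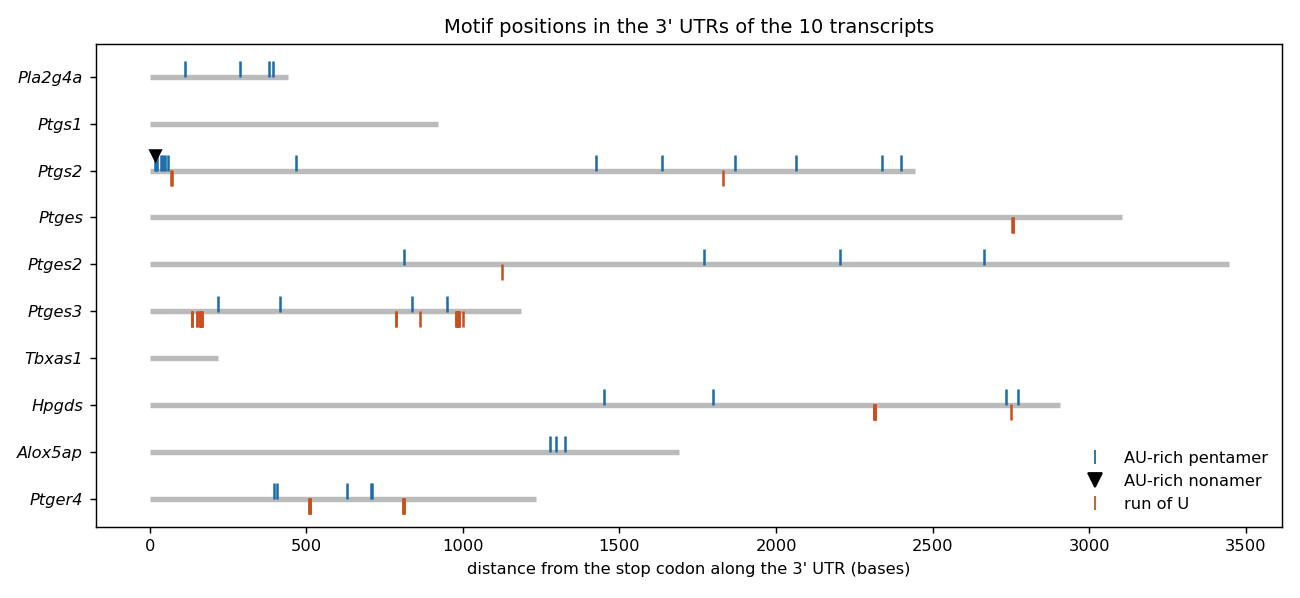
Positions of the AU-rich pentamer (blue), the AU-rich nonamer (black triangle) and runs of 7 U (orange) along the annotated 3′ UTR of each of the 10 transcripts, in bases from the stop codon, with the grey bar as the length of the UTR. Ptgs2 has 14 pentamers, several close to the stop codon, and Ptges3 has 28 overlapping runs of U in 1186 bases.

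Without LPS the pathway was led by Ptges3 and Pla2g4a, and after LPS by Ptgs2. Levels of different genes are compared as CPM per kb of exon. In RNA of DMSO cells, Ptges3 (prostaglandin E synthase 3, also the HSP90 co-chaperone p23) stood at 124 ± 24.05 CPM per kb (SD, n = 4) and Pla2g4a at 11.99 ± 1.44. Alox5ap (5.70 ± 0.969), Hpgds (4.90 ± 1.67) and Ptgs2 (3.34 ± 2.03) followed, with libraries of each neighbour overlapping. Ptger4 and Ptges2 stood at 1.56 ± 0.729 and 1.37 ± 0.434 CPM per kb, and Ptges, Ptgs1 and Tbxas1 at 0.325 or less. In RNA of LPS cells Ptgs2 reached 499 ± 93.7 CPM per kb, above Ptges3 (145 ± 18.4) in every library. Pla2g4a (14.2 ± 0.694) and Alox5ap (3.45 ± 1.14) came next, with no overlap with the genes beside them. Hpgds, Ptger4, Ptges2 and Ptges then lay between 1.14 and 1.75 CPM per kb, and neighbours in that order overlapped. With LPS and TM7nox the 5 highest genes were in the same order as with LPS, at 409 ± 75.0 CPM per kb for Ptgs2 and 143 ± 23.2 for Ptges3.

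**Figure D2:**
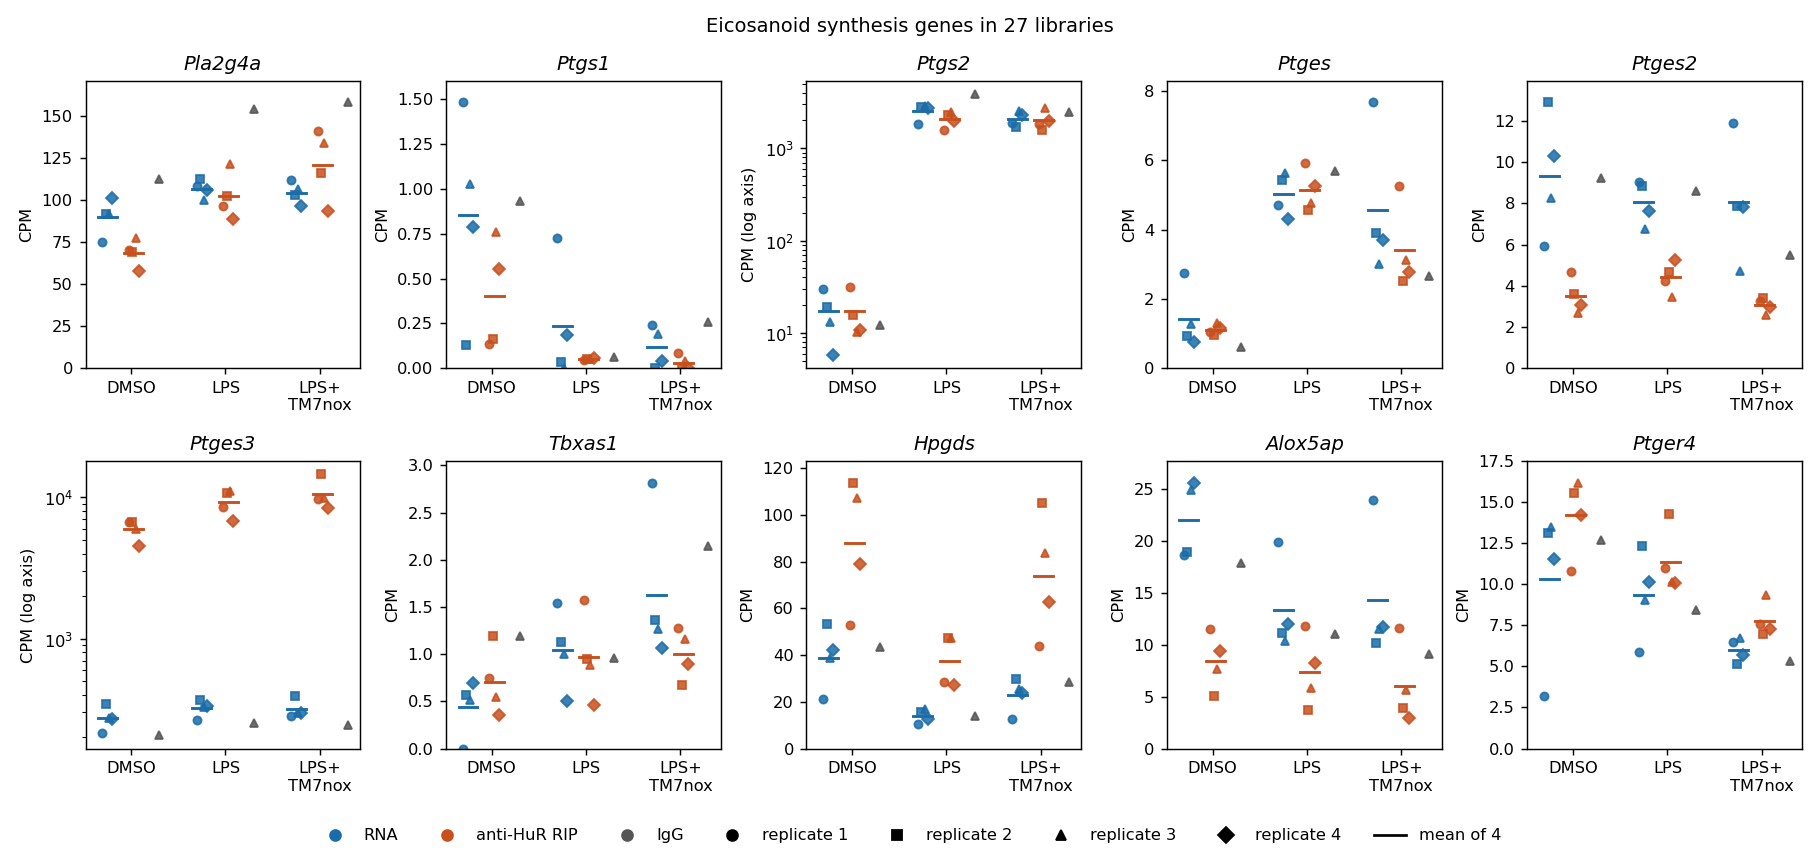
CPM of each gene in all 27 libraries by treatment (x axis), for total RNA (blue), anti-HuR RIP (orange) and IgG (grey), with symbols for the replicate number and bars for the mean of 4 libraries; the Ptgs2 and Ptges3 axes are logarithmic and the others start at 0. Ptgs2 is at 1570 CPM or more in every library given LPS, and Ptges3 is at 4504 CPM or more in every anti-HuR library and at 395 CPM or less in every RNA and IgG library.

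The first comparison, LPS against DMSO in RNA, describes the inflammatory response of the pathway. Of the 10 members tested, 2 rose and 2 fell. Over all 12369 genes tested, 20.2% were called higher and 21.7% lower by edgeR's quasi-likelihood test at a Benjamini-Hochberg adjusted p under 0.05, so the number of members called was near the share of all genes. The median log2 fold change of the members was -0.01, against -0.04 over all genes. The members that rose were the inducible cyclooxygenase and the inducible prostaglandin E synthase, and those that fell were the prostaglandin D synthase and the 5-lipoxygenase activating protein.

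Ptgs2 (chr1:149975194-149983978, plus strand) was at 30.3, 19.3, 13.1 and 5.75 CPM in RNA of DMSO replicates 1 to 4. With LPS it was at 1844, 2806, 2864 and 2721 CPM. The groups lay far apart, although the DMSO level itself differed more than 5-fold between replicates. The rise was 151-fold, or 7.24 on the log2 scale (SE 0.464, adjusted p 3.15e-08), and Ptgs2 took 0.310% of all RNA counts in LPS libraries against 0.00270% in DMSO libraries. It was called in all 18 alternative fits, from 6.57 in replicates 1 and 2 alone to 8.22 in replicates 3 and 4 alone. Ptgs2os, a gene annotated over Ptgs2 on the opposite strand, had 207 counts in all RNA libraries against 520763 for Ptgs2.

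Ptges, the microsomal prostaglandin E synthase that acts with Ptgs2, was at 2.76, 0.927, 1.29 and 0.756 CPM in DMSO and at 4.70, 5.45, 5.63 and 4.31 CPM with LPS. Each LPS library was above every DMSO library. The fold change was 4.03 (log2 2.01, SE 0.399, adjusted p 0.000981), at a level that stayed below 6 CPM. The cytosolic and membrane relatives did not pass the test: Ptges2 had a log2 difference of -0.27 (adjusted p 0.456) and Ptges3 of 0.20 (adjusted p 0.315). With the replicate number as a block, Ptges3 was called at 0.21 with an adjusted p of 0.0422, and replicates 3 and 4 alone gave 0.29 (adjusted p 0.0108). Ptges was not called in replicates 1 and 2 alone (log2 1.66, adjusted p 0.142).

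Hpgds, the hematopoietic prostaglandin D synthase, was at 21.2, 53.1, 38.9 and 42.2 CPM in DMSO and at 10.6, 15.7, 16.7 and 12.5 CPM with LPS. All LPS libraries lay below all DMSO libraries. It fell by 1.52 on the log2 scale (SE 0.270, adjusted p 0.00041), to 13.9 ± 2.82 from 38.9 ± 13.2 CPM (SD, n = 4). The difference was as large in replicates 1 and 2 alone (-1.49), where 2 libraries a group gave an adjusted p of 0.0766.

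Alox5ap presents arachidonate to 5-lipoxygenase. Its RNA was at 18.7, 18.9, 24.9 and 25.6 CPM in DMSO and at 19.9, 11.1, 10.3 and 11.98 CPM with LPS. Replicate 1 of the LPS group overlapped the DMSO group, and the other 3 LPS libraries were lower. The difference of -0.76 (SE 0.279, adjusted p 0.041) was called in 11 of 18 alternatives. It was -0.27 (adjusted p 0.773) in replicates 1 and 2 alone and -1.17 (adjusted p 6.6e-06) in replicates 3 and 4 alone. Leaving out any 1 of LPS replicates 2, 3 and 4 or DMSO replicates 3 and 4 ended the call, with adjusted p from 0.0973 to 0.114.

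The constitutive cyclooxygenase Ptgs1 was close to the limit of detection, with 7, 5, 32 and 24 counts in RNA of DMSO and 17, 1, 0 and 6 counts with LPS. The libraries overlapped, and the difference of -1.79 on the log2 scale had an adjusted p of 0.188. It was called with the replicate block (-2.27, adjusted p 0.0203) and without RNA LPS replicate 1 (-3.33, adjusted p 0.0262). Tbxas1, thromboxane synthase, was also sparse, at 0 to 0.690 CPM in DMSO and 0.499 to 1.54 CPM with LPS (log2 0.98, adjusted p 0.154). Pla2g4a, the phospholipase that starts the pathway, was at 90.0 ± 10.8 CPM in DMSO and 107 ± 5.21 CPM with LPS (log2 0.21, adjusted p 0.107). It was called by DESeq2 (0.26, adjusted p 0.0166) and without RNA LPS+TM7nox replicate 1 (0.27, adjusted p 0.0404). The EP4 receptor gene Ptger4 was at 3.18, 13.2, 13.5 and 11.6 CPM in DMSO and at 5.86, 12.3, 9.03 and 10.2 CPM with LPS (log2 -0.22, adjusted p 0.602). In both groups replicate 1 was the lowest, and replicates 3 and 4 alone gave -0.38 (adjusted p 0.0461).

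The same comparison in RIP libraries asks how the RNA recovered with anti-HuR changed. Of 9 members that passed the low-count filter, 4 rose and 1 fell, against 23.5% of 13614 genes called higher and 21.2% lower. Ptgs1 did not pass it, with 45, 4 and 3 counts over the 4 libraries of DMSO, LPS and LPS with TM7nox. Ptgs2 rose from 17.1 ± 10.1 to 2085 ± 388 CPM (log2 6.90, SE 0.400, adjusted p 2.36e-09), and its 4 LPS libraries lay between 1594 and 2470 CPM. Ptges rose from 1.12 ± 0.149 to 5.13 ± 0.604 CPM (log2 2.18), and was called in all 18 alternatives. Hpgds fell from 88.1 ± 28.01 to 37.6 ± 11.2 CPM (log2 -1.25, adjusted p 0.00218), with no overlap between the groups.

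Pla2g4a and Ptges3 were the members called higher in RIP but not in RNA, and for neither was the difference between the assays called. Pla2g4a was at 57.8 to 77.2 CPM in RIP of DMSO and at 88.8 to 122 CPM with LPS (log2 0.56, SE 0.166, adjusted p 0.0125). Ptges3 was at 4504 to 6658 CPM and at 6855 to 11163 CPM (log2 0.63, SE 0.230, adjusted p 0.0355). Neither pair of groups overlapped on the TMM scale. As shares of all RIP counts, however, Ptges3 stood at 0.568% in DMSO and 0.563% with LPS. Pla2g4a stood at 0.00655% and 0.00620%. Both rises thus rest on the scaling, and no fit with library sizes alone was run for this comparison. Pla2g4a was called in 13 of 18 alternatives and Ptges3 in 8 of 18. Leaving out RIP LPS replicate 3 or RIP DMSO replicate 4 ended the Pla2g4a call (adjusted p 0.0629 and 0.0564). For Ptges3, leaving out any 1 of 7 of the 8 libraries compared, all but RIP LPS replicate 4, ended it, with adjusted p from 0.0621 to 0.14. Ptger4, at -0.34 with an adjusted p of 0.131, was called without RIP DMSO replicate 1 (-0.49, adjusted p 0.0375) or RIP LPS replicate 2 (-0.51, adjusted p 0.0353).

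The next comparison, LPS with TM7nox against LPS alone, addresses the effect of the compound on the LPS response. In RNA no member was called by edgeR, against 7.37% of all genes called higher and 6.40% lower. At an unadjusted p under 0.05 there was 1 member, Hpgds, and DESeq2 called 0. Ptgs2 was at 1867, 1697, 2542 and 2277 CPM, within and below the range with LPS alone. The difference was -0.28 on the log2 scale, with a 95% interval from -1.03 to 0.47 that reached a 2-fold decrease but not a 2-fold increase. Pla2g4a and Ptges3 had the narrowest intervals, from -0.25 to 0.19 and from -0.34 to 0.30. Ptges was at 7.68, 3.89, 3.01 and 3.70 CPM, with replicate 1 above and the other 3 below every LPS library.

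Hpgds did not pass the test in RNA, and its comparison shares the LPS libraries with that of LPS against DMSO. It was at 12.6, 29.8, 25.5 and 23.8 CPM with LPS and TM7nox, higher than the LPS library of the same number in 4 of 4 replicates. Replicates 2, 3 and 4 were above every LPS library and replicate 1 was within their range. The difference of 0.73 (SE 0.267) had an adjusted p of 0.0889. With the replicate number as a block it was 0.69 with an adjusted p of 0.0023, and 1 member was called, while the calls over all 12369 genes went from 1704 to 3091. Without RNA LPS+TM7nox replicate 1 it was 0.93 (adjusted p 0.0186), and without RNA DMSO replicate 1, the shallowest library, it was called at 0.73 (adjusted p 0.0434). Ptger4, at -0.63 with an adjusted p of 0.214, was also called without RNA DMSO replicate 1 (-0.64, adjusted p 0.0396) and in replicates 3 and 4 alone (-0.60, adjusted p 0.0159). The value of Hpgds in replicates 1 and 2 alone was 0.69 (adjusted p 0.668), and in replicates 3 and 4 alone 0.78 (adjusted p 0.00203).

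In RIP, 1 member rose and 1 fell with TM7nox relative to LPS, against 8.64% and 7.61% of all genes. Hpgds was at 43.9, 105, 83.7 and 62.8 CPM with TM7nox and at 28.5, 47.1, 47.5 and 27.4 CPM with LPS alone, higher in 4 of 4 replicate numbers. The rise was 0.93 (SE 0.285, adjusted p 0.0354), and replicate 1 with TM7nox was the only library inside the LPS range. Ptger4 was at 7.56, 6.98, 9.35 and 7.29 CPM with TM7nox and at 11.01, 14.3, 10.1 and 10.1 CPM with LPS alone. Each TM7nox library was below every LPS library, and Ptger4 fell by 0.59 (SE 0.182, adjusted p 0.036). Neither gene was called in replicates 1 and 2 alone or in replicates 3 and 4 alone. Leaving out RIP LPS replicate 1 or RIP LPS+TM7nox replicate 2 ended both calls. Leaving out RIP LPS+TM7nox replicate 3 or RIP LPS replicate 4 ended that of Hpgds alone, and leaving out RIP LPS replicate 2, RIP LPS+TM7nox replicate 4, RIP LPS+TM7nox replicate 1 or RIP DMSO replicate 3 ended that of Ptger4 alone.

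The 2 prostaglandin E synthases Ptges and Ptges2 were lower with TM7nox in RIP in 4 of 4 replicate numbers but were not called. Ptges had a log2 difference of -0.62 (adjusted p 0.101) and Ptges2 of -0.57 (adjusted p 0.109). With the replicate block both were called, Ptges at -0.64 (adjusted p 0.0207) and Ptges2 at -0.57 (adjusted p 0.0285), so that 4 members were called in place of 2, while the calls over all 13614 genes went from 2212 to 4577. Ptges was also called without RIP LPS+TM7nox replicate 1 (-0.91, adjusted p 0.0153). In RNA its difference was -0.14 (adjusted p 0.855), and Ptges2 stood at 8.07 CPM in both groups. Ptgs2 had a RIP difference of -0.08, with a 95% interval from -0.74 to 0.57.

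**Figure D3:**
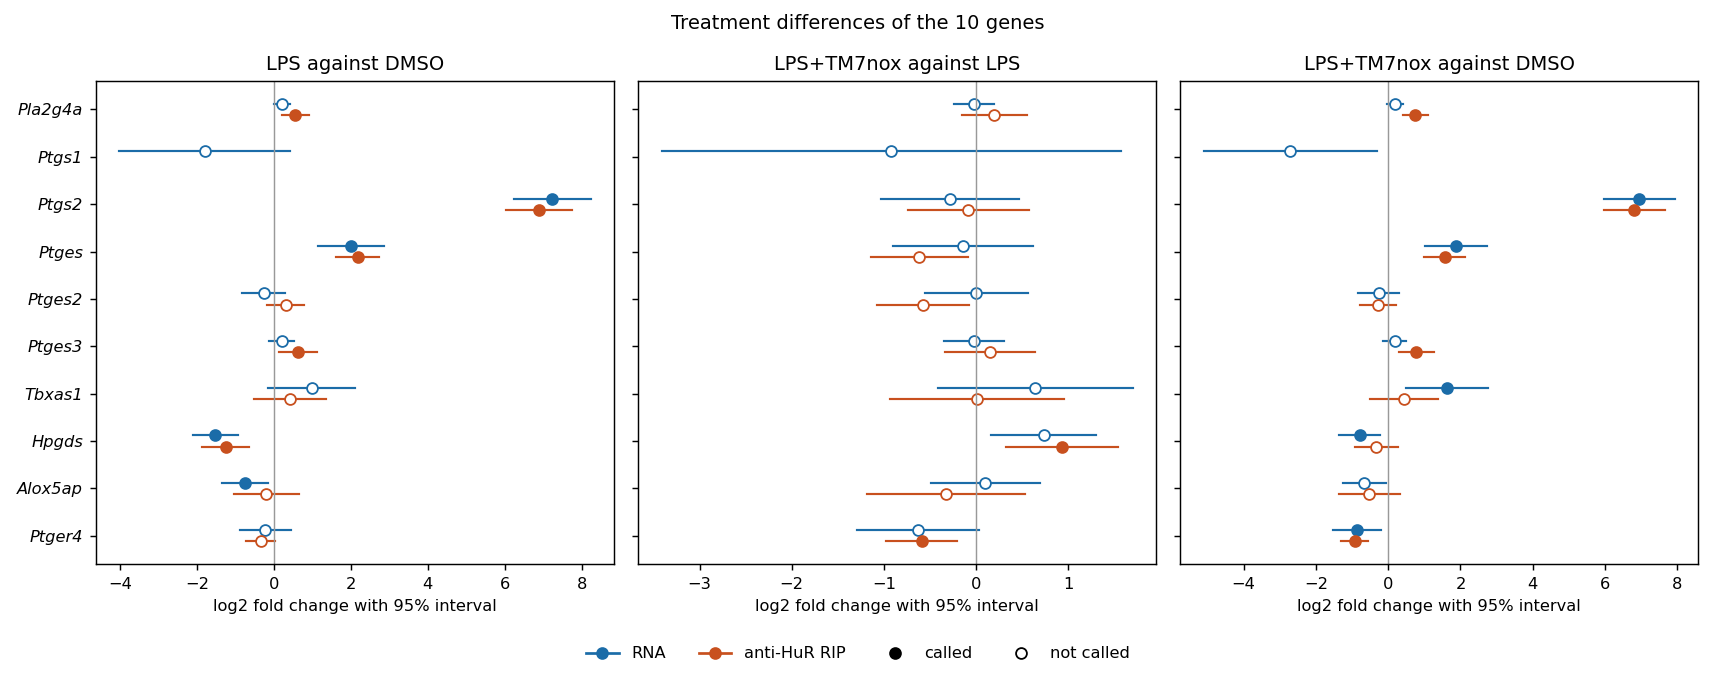
Log2 fold changes of the 10 genes (rows) with 95% intervals for 3 treatment comparisons (panels, each with its own x axis) in RNA (blue) and anti-HuR RIP (orange); filled points were called at an adjusted p under 0.05 and open points were not, and Ptgs1 was not tested in RIP. Ptgs2 lies near 7 in both assays against DMSO, and its intervals cover 0 in the comparison with LPS alone.

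Against DMSO, cells given LPS and TM7nox had 3 members higher and 2 lower in RNA, where 23.7% and 23.6% of all genes were called. This comparison shares its DMSO libraries with that of LPS alone and is given for its own values. Ptgs2 was 124-fold higher (log2 6.95) and Ptges 3.66-fold higher (log2 1.87). Tbxas1 was at 2.82, 1.36, 1.27 and 1.06 CPM against 0, 0.566, 0.515 and 0.690 CPM (log2 1.62, SE 0.525, adjusted p 0.0203), with no overlap. Without RNA LPS+TM7nox replicate 1 its difference was 1.28 (adjusted p 0.0531). The call was also lost in replicates 1 and 2 alone and in replicates 3 and 4 alone. Tbxas1 had at most 58 counts in any RNA library, and Hipk2, which overlaps it on the opposite strand, had 59343 counts over the RNA libraries against 335 for Tbxas1. Whether the counting used the strand is not given in the sources used here, so these low Tbxas1 values are uncertain.

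Hpgds was lower by 0.79 on the log2 scale than in DMSO (a difference of -0.79, adjusted p 0.0241), at 23.0 ± 7.33 CPM against 38.9 ± 13.2 CPM in DMSO and 13.9 ± 2.82 CPM with LPS alone. Leaving out RNA LPS+TM7nox replicate 1 or RNA DMSO replicate 2 or 4 gave adjusted p from 0.0537 to 0.0852. Ptger4 was at 6.46, 5.14, 6.74 and 5.69 CPM, a difference of -0.86 (adjusted p 0.0352). DMSO replicate 1, at 3.18 CPM from 15 counts, was below all of these, and the other 3 DMSO libraries were above all of them. Ptger4 was called in 10 of 18 alternatives, and leaving out any 1 of DMSO replicates 2, 3 and 4 or any TM7nox library ended the call. Its neighbour Ttc33 overlaps it on the opposite strand with 4327 RNA counts against 3026. The replicate block added 2 calls, Alox5ap at -0.79 (adjusted p 0.00433) and Ptgs1 at -2.99 (adjusted p 0.00549). Alox5ap was also called without RNA LPS+TM7nox replicate 1 (-0.97, adjusted p 0.00317) or RNA LPS replicate 1, and Ptgs1 without RNA LPS replicate 1 or 3 or RNA DMSO replicate 2.

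In RIP the comparison of LPS and TM7nox with DMSO called 4 members higher and 1 lower, against 25.1% and 23.1% of all genes. Ptgs2 (log2 6.81), Ptges (1.56), Ptges3 (0.78) and Pla2g4a (0.75) were higher. The Ptges3 call was lost in replicates 1 and 2 alone and in replicates 3 and 4 alone, and that of Pla2g4a in replicates 3 and 4 alone. As shares of all RIP counts, Ptges3 went from 0.568% in DMSO to 0.618%, and Pla2g4a from 0.00655% to 0.00718%. Ptger4 was lower by 0.93 (a log2 difference of -0.93, SE 0.181, adjusted p 0.000538), and its libraries, 6.98 to 9.35 CPM, were all below the DMSO range of 10.8 to 16.2 CPM. This Ptger4 call was made in all 18 alternatives. Under the block Hpgds (-0.33, adjusted p 0.0325) and Alox5ap (-0.60, adjusted p 0.0208) were called as well, and Alox5ap was called without RIP LPS+TM7nox replicate 1 (-1.10, adjusted p 0.024).

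The comparison of RIP with RNA within a treatment describes which transcripts were recovered with anti-HuR. The scale is relative to the typical gene, since TMM sets the bulk of genes near 0. In each treatment the same count of members stood out, 2 higher and 2 lower of 10. Over all 14311 genes, 37.0% were called higher and 33.4% lower in DMSO, 32.9% and 30.8% with LPS, and 35.2% and 34.8% with LPS and TM7nox. The members' calls were thus no more frequent than those of all genes. Ptges3 and Hpgds were the higher members, and Ptges2 and Alox5ap the lower ones.

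Of the members, Ptges3 had the highest RIP to RNA ratio. In RNA it lay between 213 and 395 CPM in all 12 libraries, and in RIP between 4504 and 14574 CPM. The ratio was 23.2-fold in DMSO (log2 4.54, SE 0.250, adjusted p 3.79e-14), 28.8-fold with LPS (4.85) and 32.9-fold with LPS and TM7nox (5.04). Ptges3 took 0.563% to 0.618% of all RIP counts by treatment, and 0.0378% to 0.0417% of RNA counts. In IgG libraries it was at 206, 251 and 246 CPM, close to its RNA level. Its 3′ UTR, part of which is shown above, had the longest run of U among the members, 16 bases starting 978 bases after the stop codon and so outside the window shown. Ptger4, with a run of 11 bases, was not called in RIP over RNA in any treatment by the TMM fit without the block. Ptges3-ps, by its name a pseudogene copy of Ptges3, had 5153 RNA counts and 123026 RIP counts against 101823 and 2192620 for Ptges3. Reads could have been split between these genes, but their sequences were not compared and this was not tested.

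Hpgds followed at 2.40-fold in DMSO (log2 1.26, SE 0.315, adjusted p 0.000955), 2.70-fold with LPS and 3.11-fold with LPS and TM7nox. The prostaglandin E synthase Ptges2 was lower in RIP, by log2 differences of -1.34, -0.86 and -1.40, from 8.07 to 9.34 CPM in RNA to 3.06 to 4.41 CPM in RIP by group means. Ptges2 was called in all 31 alternatives of each treatment. Alox5ap was lower by differences of -1.29, -0.83 and -1.22. Its call with LPS (adjusted p 0.0485) was made in 15 of 31 alternatives. Neither DESeq2, DESeq2 size factors in edgeR nor replicates 1 and 2 alone gave this call. It was lost without RNA LPS replicate 1 (-0.62, adjusted p 0.161) or 4, RIP LPS replicate 2 (-0.62, adjusted p 0.166), 3 or 4, RNA DMSO replicate 2, 3 or 4, RIP DMSO replicate 3 or 4, RNA LPS+TM7nox replicate 3 or 4, or RIP LPS+TM7nox replicate 3.

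Ptgs2, whose 3′ UTR is the richest in pentamers by count, was not called in RIP over RNA. Its log2 values were 0.20 in DMSO, -0.30 with LPS and -0.09 with LPS and TM7nox, with 95% intervals from -0.52 to 0.92, -0.99 to 0.39 and -0.78 to 0.61. Pla2g4a, Ptges, Tbxas1, Ptgs1 and Ptger4 were not called either. Pairing by replicate number called Pla2g4a (-0.30, adjusted p 0.0441) and Ptger4 (0.52, adjusted p 0.0489) in DMSO. Pla2g4a in DMSO was also called without RNA DMSO replicate 1 (-0.43, adjusted p 0.00883), RIP DMSO replicate 3 (-0.42), or any 1 of the RIP libraries of cells given LPS, and in LPS with TM7nox without RIP LPS+TM7nox replicate 4 (0.33, adjusted p 0.0363).

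These values depend on the scale. With library sizes alone the median of all genes moved from 0.04 to -0.72 in DMSO, from -0.06 to -1.06 with LPS and from -0.09 to -1.07 with LPS and TM7nox. The split of calls over all genes then went from 5300 higher and 4775 lower to 3776 and 7113 in DMSO, from 4708 and 4401 to 2833 and 8134 with LPS, and from 5031 and 4975 to 3324 and 7903 with LPS and TM7nox. On that scale Ptges3 was at 3.77, 3.84 and 4.03, Hpgds at 0.53 (adjusted p 0.0675), 0.42 (adjusted p 0.147) and 0.64 (adjusted p 0.0288), and Ptgs2 at -0.66 (adjusted p 0.105), -1.30 (adjusted p 0.00193) and -1.06 (adjusted p 0.00886). DESeq2's scaling moved the median of all genes the other way, to 0.19, 0.11 and 0.13. Relative to the median gene of the same fit, Hpgds was at 1.23 with TMM and 1.25 with library sizes in DMSO, and Ptgs2 with LPS at -0.24 with both.

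**Figure D4:**
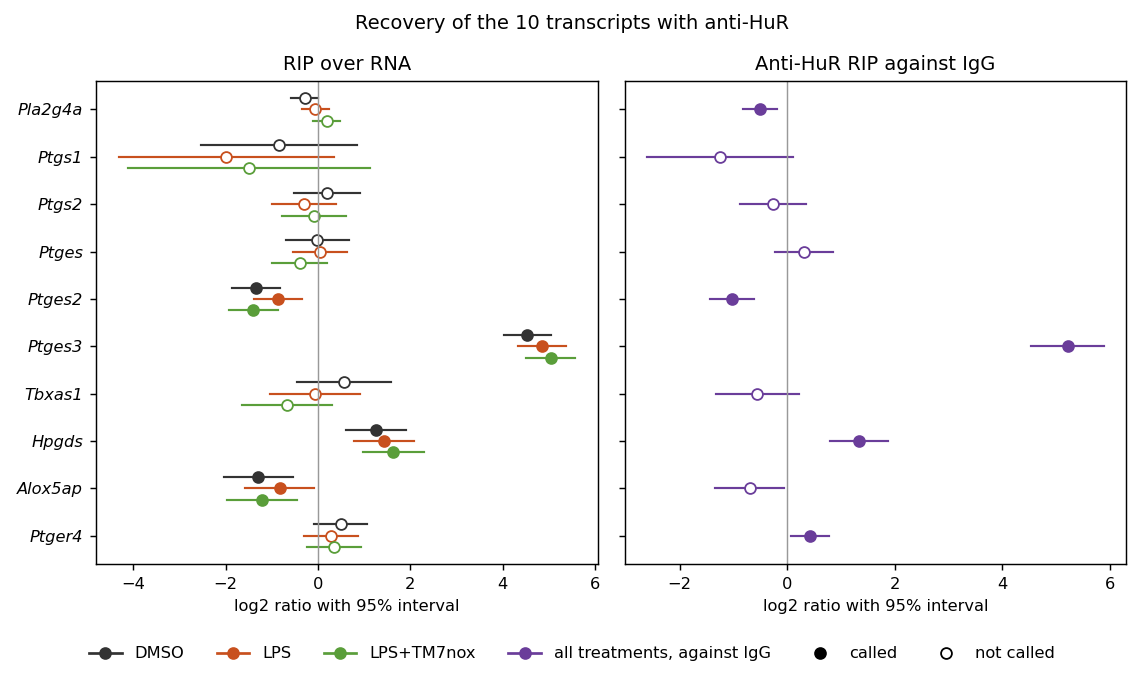
Left, log2 ratio of anti-HuR RIP to RNA for each gene in DMSO (black), LPS (orange) and LPS with TM7nox (green); right, log2 ratio of anti-HuR RIP to IgG over all treatments (purple). Lines are 95% intervals, filled points were called at an adjusted p under 0.05, and Ptges3 stands at 4.54 to 5.04 on the left and 5.21 on the right.

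Whether recovery changed with treatment was tested as the difference between the RIP change and the RNA change. No member was called for LPS against DMSO or for LPS with TM7nox against LPS by edgeR, and none was below an unadjusted p of 0.05; DESeq2 called 0 as well. Over all 14311 genes 0.0419% and 0.00699% were called, which is 6 genes and 1 gene (1041 and 771 at an unadjusted p under 0.05, and 66 and 3 by DESeq2). For LPS against DMSO these were 2 higher and 4 lower; DESeq2 gave 34 and 32, and library sizes alone, which moved the median from 0.02 to -0.21, gave 2 and 25. The smallest unadjusted p among the members were those of Ptges2, at 0.189 (log2 0.48) and 0.145 (log2 -0.54). For Ptgs2 the change was -0.50 with LPS, with a 95% interval from -1.50 to 0.49, and 0.21 with TM7nox, with an interval from -0.76 to 1.19. For Ptges3 the intervals were -0.32 to 0.94 and -0.44 to 0.82. Changes inside these intervals are not excluded, and the Pla2g4a and Ptges3 calls made in RIP but not in RNA are not shown to differ between the assays.

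Recovery above IgG was tested over the 12 anti-HuR and 3 IgG libraries with treatment as a term. It called 3 members higher and 2 lower, against 29.8% and 28.1% of 18282 genes. Ptges3 was 37.0-fold above IgG (log2 5.21, SE 0.324, adjusted p 1.04e-11) and Hpgds 2.51-fold (log2 1.33, adjusted p 0.000135). Ptger4 was at 0.42 (adjusted p 0.042), a call made in the same direction in 11 of 21 alternatives. With library sizes alone, which lowered the median gene, it was at -0.67 (adjusted p 0.00252), but over the median gene of the same fit it was at 0.47 with TMM and 0.46 with library sizes. Ptges2 was below IgG by a log2 difference of -1.03 (adjusted p 8.87e-05) and Pla2g4a by -0.51 (adjusted p 0.00668). Without any 1 of the 3 IgG libraries, RIP LPS replicate 1, RIP LPS+TM7nox replicate 1 or 3, or RIP DMSO replicate 2 or 3, Ptger4 was not called (0.28 to 0.51, adjusted p from 0.053 to 0.258), nor without a low-count filter (0.46, adjusted p 0.107). The block ended the Pla2g4a call (-0.35, adjusted p 0.0779), as did replicate 3 alone (-0.24, adjusted p 0.179). Alox5ap, at -0.70 with an adjusted p of 0.0583, was called with the block (-0.93, adjusted p 0.000712) and without replicate 1 of any RIP group (-0.77 to -0.88).

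Ptgs2 had high CPM in the IgG libraries of cells given LPS, as it did in total RNA. CPM are shares of a library and do not measure how much RNA the beads held. Ptgs2 was at 12.2 CPM in DMSO, 3861 CPM with LPS and 2451 CPM with LPS and TM7nox in the single IgG libraries. The RNA library of the same replicate number had 13.1, 2864 and 2542 CPM, and the anti-HuR library 10.2, 2470 and 2724 CPM. Its anti-HuR to IgG ratio was -0.26 on the log2 scale (adjusted p 0.471), with a 95% interval from -0.87 to 0.35. Pla2g4a, the member with the most pentamers per kb, was at 113, 154 and 158 CPM on IgG beads, above the anti-HuR library of replicate 3 in each treatment (77.2, 122 and 134 CPM). With library sizes alone the median of all genes in this comparison moved from -0.05 to -1.13, and the split from 5445 higher and 5135 lower to 3012 and 9604.

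Other genes of the pathway were read from 4 fixed lists with 68 genes, of which 67 were in the table. In RNA, LPS raised 5 and lowered 3 of 14 tested phospholipase and arachidonate supply genes, where 20.2% of all genes were called higher and 21.7% lower. With the block 10 were called in place of 8, and 6481 in place of 5190 over all genes. The secreted phospholipase Pla2g5 rose from 3.28 ± 0.809 to 10.2 ± 2.29 CPM (log2 1.59, adjusted p 8.96e-05), and the arachidonate-preferring acyl-CoA synthetase Acsl4 rose by 0.97. Daglb, a diacylglycerol lipase, fell from 38.6 ± 5.04 to 8.90 ± 1.25 CPM (log2 -2.15, adjusted p 4.54e-08). Of 7 prostanoid synthase and prostaglandin inactivation genes tested in RIP with LPS, 1 was higher and none lower, against 23.5% and 21.2% of all genes. In RNA 4 of 7 tested fell and none rose, against 21.7% and 20.2% of all genes. Among them were the prostaglandin reductase Ptgr2 (-0.83), the carbonyl reductase Cbr1 (-0.79) and the efflux pump Abcc4 (-0.70, adjusted p 0.0428). In replicates 1 and 2 alone Ptgr2 (-0.93, adjusted p 0.146) and Cbr1 (-1.10, adjusted p 0.129) were not called. Abcc4 was not called with DESeq2 size factors (adjusted p 0.0556), in replicates 1 and 2 alone (-0.24, adjusted p 0.57) or without RNA DMSO replicate 2, 3 or 4, RNA LPS replicate 3 or 4 or RNA LPS+TM7nox replicate 2.

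Of 7 leukotriene genes tested in RIP with LPS, 2 were higher and none lower, against 23.5% and 21.2% of all genes. In RNA, of 7 tested, 3 fell, 1 rose and 3 were not called, beside the same 21.7% lower and 20.2% higher over all genes. Alox5 (5-lipoxygenase, the partner of Alox5ap) fell from 12.1 ± 4.25 to 6.84 ± 1.75 CPM (log2 -0.87, adjusted p 0.0249). The call was lost in replicates 1 and 2 alone (adjusted p 0.398) and without RNA LPS replicate 1 or 2 or RNA DMSO replicate 3 or 4 (adjusted p from 0.0629 to 0.0888 over the libraries left out). The leukotriene A4 hydrolase Lta4h had a difference of -0.46 (adjusted p 0.0277) that was not called with DESeq2 size factors (adjusted p 0.0505), with no low-count filter (adjusted p 0.133), in replicates 1 and 2 alone (adjusted p 0.268), in replicates 3 and 4 alone (-0.31, adjusted p 0.0733) or without RNA DMSO replicate 1 or 4, RNA LPS replicate 2 or 4 or RNA LPS+TM7nox replicate 1. Abcc1, a pump that exports leukotriene C4, rose by 0.77, a call also lost in replicates 1 and 2 alone (0.89, adjusted p 0.0708). Of 5 receptors tested, 3 rose and none fell, against 20.2% and 21.7% of all genes. The prostacyclin receptor Ptgir rose from 5.59 ± 2.43 to 13.8 ± 4.56 CPM (log2 1.38, adjusted p 0.00405), but was not called in replicates 1 and 2 alone (0.78, adjusted p 0.406), while the EP4 member Ptger4 was not called.

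With TM7nox added to LPS, 2 of 14 supply genes rose and none fell in RNA, against 7.37% higher and 6.40% lower over all genes. With the block 6 were called, where the calls over all genes also rose, to 3091 from 1704. The phospholipase Pnpla8 rose from 13.2 ± 2.25 to 35.8 ± 2.18 CPM (log2 1.44, adjusted p 6.85e-05). Of the prostanoid list 2 of 7 rose and none fell, against the same 7.37% and 6.40%, and 3 were called with the block. The aldo-keto reductase Akr1b8 was one of them (1.36, adjusted p 0.0251). Alox5 fell further, to 3.34 ± 1.10 CPM (-1.02, adjusted p 0.0324), and Cotl1, a coactosin-like protein that binds 5-lipoxygenase, fell by 0.58 on the log2 scale. Abcc1 rose by 1.13. Among 5 receptors 1 rose, Ptgir at 1.18 (adjusted p 0.0209), and 1 fell, and 3 were called with the block. In replicates 1 and 2 alone the calls of Cotl1 (-0.68, adjusted p 0.192) and Abcc1 (1.05, adjusted p 0.119) were lost, as were those of Akr1b8, Alox5 and Ptgir. The latter 3 were also lost without some libraries, with adjusted p up to 0.0774, 0.0922 and 0.0691: Akr1b8 without RNA LPS+TM7nox replicate 1 or RNA LPS replicate 2, 3 or 4, Alox5 without RNA LPS+TM7nox replicate 1, 2 or 4 or RNA LPS replicate 3 or 4, and Ptgir without RNA LPS replicate 1 or 2 or RNA LPS+TM7nox replicate 3 or 4. The median log2 difference was 0.44 for the supply list, 0.44 for the prostanoid list, -0.26 for the leukotriene list and -1.04 for the receptors, against -0.00 over all genes.

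In RIP over RNA, the prostanoid and the leukotriene lists each had 5 of 7 tested genes lower and none higher in each treatment, where 33.4%, 30.8% and 34.8% of all genes were called lower in DMSO, LPS and LPS with TM7nox. The supply list had 3 of 15 higher in each treatment and 5, 3 and 5 lower in that order. Of 5 receptors 2 were higher and none lower in DMSO, and 1 was higher and 1 lower in LPS and in LPS with TM7nox, where 37.0%, 32.9% and 35.2% of all genes were called higher. The prostanoid count was 6 with the block in DMSO and in LPS. In DMSO the aldo-keto reductase Akr1b3 was at -1.84, Alox5 at -1.91 and Lta4h at -1.71, on the lower side like Ptges2 and Alox5ap. On the higher side, Daglb stood at 2.79 in DMSO, 3.001 with LPS and 3.25 with LPS and TM7nox (adjusted p 4.01e-13 in DMSO), and the leukotriene receptor Cysltr1 at 1.84, 2.05 and 2.48. Acsl4 stood at 1.29, 1.11 and 1.54, and with library sizes alone its value with LPS was 0.10 (adjusted p 0.572).

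The 5 coding genes whose log2 CPM followed Ptgs2 most closely over the 24 RNA and RIP libraries, among 8322 with a mean of at least 5 CPM, were Ifi204, Rnf19b, Acod1, Ifi209 and Gch1. Pearson's r was 0.994 for Ifi204 and 0.988 for Gch1. The libraries share treatments, so these values mainly describe the step between DMSO and LPS. Acod1 went from 9.03 to 2788 CPM in RNA between those treatments, and Gch1 from 12.5 to 121 CPM.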

How the data were processed

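The authors deposited raw read counts per gene for 27 libraries, with no normalization. Per the labels' protocols, libraries were made from 7 ng of RNA with a stranded kit. Per the submitters' processing notes, FastQC 0.11.9, STAR, HTSeq, DESeq2 and the GRCm39 build were used. The annotation release and strand setting were not given in the sources used here. Groups and replicate numbers come from the labels, which do not say that replicates are separate cultures, so p-values measure only the spread between these samples.

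The tests used edgeR 4.0.16 under R 4.3.3 (quasi-likelihood F test, two-sided, TMM, filterByExpr with a minimum count of 10, Benjamini-Hochberg adjustment over all genes tested, called under 0.05). All 12 RNA libraries were fitted together, all 12 RIP libraries together, these 24 together for RIP over RNA, and the 15 RIP and IgG libraries with antibody and treatment as terms. DESeq2 1.42.0 was an alternative. Intervals are 95% intervals of the fit. The code was tested on simulated counts. CPM per kb uses the union of exons in GENCODE M39, which matched 93.2% of gene IDs.

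The members and the lists were chosen with earlier results of these data known. Named pathway genes are at most the 3 called genes of largest change with a mean of at least 5 CPM per list and comparison. Same-numbered samples deviated together in all 9 pairs of groups (correlations of deviations from the group mean from 0.114 to 0.392). The main tests had no block and so did not use this pairing. The replicate number entered a model only as the block of an alternative fit. No pair of replicates agreed within sampling noise (chi-square per gene from 38.0 to 213 over 36 pairs). Depth was 2728534 to 41449233 counts per library, and reads without molecular identifiers may include copies of 1 molecule. Alternatives were other scalings, no filter, DESeq2, the block, pairs of replicates and each library left out.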

Additional observations from a re-analysis of the deposited data

Results flagged for a closer look

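In 4 of 60 groups of 4 libraries, 1 library stood apart from the other 3, with a gap over the range above Dixon's 95% critical value for 4 samples. Chance gives about 1 in 20 such groups. Ptgs2 in RNA of LPS replicate 1 was at 1844 CPM, below the other 3 at 2721 to 2864 CPM. Ptges3 in RNA of LPS with TM7nox replicate 2 was at 395 CPM, above the other 3 at 283 to 297 CPM. Tbxas1 was at 2.82 CPM in RNA of LPS with TM7nox replicate 1, above 1.06 to 1.36 CPM in the others. Alox5ap was at 23.9 CPM in the same library, above 10.2 to 11.7 CPM in the others.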

How the results depend on the processing

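Of 38 member values called, 16 were called in the same direction under every alternative run, among them Ptgs2 against DMSO in both assays, Ptges3 and Ptges2 in RIP over RNA, and Ptges3 and Ptges2 against IgG. Of 855 alternative values of called members, 93 were not called and 1, Ptger4 against IgG with library sizes alone, had the opposite sign. In 86 alternative values the sign differed with neither value called.

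The number of members called moved with the replicates used and with the scaling. In replicates 1 and 2 alone it was 1 for RNA LPS against DMSO (main value 4), 1 for RNA LPS+TM7nox against DMSO (5), 2 for RIP LPS against DMSO (5), 0 for RIP LPS+TM7nox against LPS (2), and 2 for RIP over RNA in DMSO and in LPS (4 each). The calls over all genes fell as well, to 1668 from 5190, 2246 from 5850, 3392 from 6090, 789 from 2212, 7432 from 10075 and 7057 from 9109 in that order. In replicates 3 and 4 alone it was 7 for RNA LPS against DMSO, 2 for RNA LPS+TM7nox against LPS (0) and 0 for RIP LPS+TM7nox against LPS, where 7349, 3489 and 1070 genes were called in all (5190, 1704 and 2212 with all replicates). Without a low-count filter it was 1 for RNA and 1 for RIP LPS+TM7nox against LPS. With library sizes alone it was 9 for RIP over RNA in LPS, in LPS+TM7nox (4 each) and against IgG (5), where the whole scale shifted down and 10967, 11227 and 12616 genes were called in all, 8134, 7903 and 9604 of them lower. The replicate block gave 1 in place of 0 and 4 in place of 2 for RNA and RIP LPS+TM7nox against LPS, and changed no other call of a member beyond those given with the results. In the pathway lists it moved no count by over 1.5 times except the TM7nox supply genes.

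Leaving out each library in turn gave 3 to 5 members for RNA LPS against DMSO, 0 to 2 for RNA LPS+TM7nox against LPS (more than 0 without RNA DMSO replicate 1 or RNA LPS+TM7nox replicate 1), 3 to 7 for RNA LPS+TM7nox against DMSO (3 without RNA LPS+TM7nox replicate 1 or RNA DMSO replicate 4), 3 to 5 for RIP LPS against DMSO (3 without RIP LPS replicate 3 or RIP DMSO replicate 4), 0 to 2 for RIP LPS+TM7nox against LPS and 4 to 6 against IgG.

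With library sizes alone, which lowered the median gene, the sign turned for Ptges (-0.96) and Ptger4 (-0.71) in RIP over RNA with LPS, for Pla2g4a (-0.80) and Ptger4 (-0.64) with LPS+TM7nox, and for Ptges (-0.75) and Ptger4 (-0.67) against IgG. These 6 values were called on that scale. In 6 others the sign turned with neither value called: in DMSO Ptgs2 (-0.66), Tbxas1 (-0.15) and Ptger4 (-0.23), and in the change of RIP over RNA with LPS Pla2g4a (-0.01), Ptges (-0.16) and Hpgds (-0.11). Over the median gene of the same fit none of these 12 values turned: Ptges and Ptger4 with LPS were at 0.10 and 0.34 with TMM and 0.10 and 0.35 with library sizes. Depth limits Ptgs1 and Tbxas1, which had at most 32 and 58 counts in any RNA library.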
